A study of Mus musculus with 6 samples.

Results

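The Rab genes encode small GTPases of membrane traffic. They were taken from the count table of sorted mammary tumor fibroblasts as all protein-coding rows whose symbol is Rab followed by a number and at most 1 letter, which gave 59 genes of 27179. Expression was measured by RNA-seq in cancer-associated fibroblasts (CAFs) from 3 raGFP-Wnt1 mammary tumors, and the GFP-positive cells of each tumor were sorted by the surface glycoprotein CD34 into CD34 negative and CD34 positive CAFs. This gave 6 libraries, 3 per group, and both libraries of a pair came from the same tumor. All 3 tumors arose in female mice, whose age was not given in the sources used here. The raGFP-Wnt1 line joins a C57BL/6 and an FVB/NJ parent strain. The mice carry 1 copy of Pdgfra H2B-GFP, a knock-in reporter from the C57BL/6 side that puts a nuclear green fluorescent protein under control of the fibroblast gene Pdgfra, together with the MMTV-Wnt1 transgene of the FVB/NJ side, in which the mouse mammary tumor virus promoter drives Wnt1 in the mammary epithelium. Both groups share the reporter and the transgene, so no library came from a gland without Wnt1, and fibroblasts without Pdgfra reporter activity were outside the sort.

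A Rab protein is a switch that is active when bound to GTP and inactive when bound to GDP. Each is held to the face of a particular membrane by lipid (prenyl) anchors and there recruits effectors, such as motors, tethers and kinases, that bud, move or fuse vesicles. Guanine nucleotide exchange factors (GEFs) turn Rabs on, GTPase-activating proteins (GAPs) turn them off, and GDP dissociation inhibitors (GDIs) carry the inactive forms through the cytosol. In fibroblasts these routes serve the secretion of collagen and matrix proteases and the uptake and recycling of integrins and growth factor receptors.

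The libraries held between 16238059 and 86609267 counts. Cd34 was low in the CD34 negative libraries, at 74.3 ± 30.2 CPM (counts scaled by library size and TMM factor; mean ± SD, n = 3) against 948 ± 571 in the CD34 positive libraries, whereas Pdgfra was at 385 ± 83.1 and 428 ± 85.8 CPM. The 9 fibroblast markers summed to between 70317 and 96669 CPM in all libraries, beside 23.3 to 186 CPM for 10 epithelial and 10.7 to 23.4 CPM for 9 immune markers. The 7 endothelial markers summed to 10.7 to 30.5 CPM in the CD34 negative and 54.5 to 128 CPM in the CD34 positive libraries. In the CD34 positive libraries most of it came from Tek, while Cdh5 had at most 3.94 CPM in any library. Mural cell markers (Rgs5, Cspg4, Mcam, Notch3 and Des) summed to 187 to 233 CPM in the CD34 negative libraries and 29.6 to 93.8 CPM in the CD34 positive ones, and 6 cell cycle genes to 12.5 to 63.1 and 43.7 to 280 CPM. The CD34 negative library of tumor 3 stood apart, with 14314 genes counted where the others had 16253 to 19220, and its log2 CPM values correlated least with the other libraries (Pearson's r across genes from 0.837 to 0.883). It listed 10 Rab genes at 0, against 1 to 8 in the other libraries. For the Rab genes refitted without both libraries of tumor 3, a log2 fold change that moved by over 1.5 times is also given without it.

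Most Rab genes were expressed in both fractions. Per length (RPKM, the CPM divided by the counted exon length in kilobases), the mean over the 6 libraries was at least 50 for 7 genes, 10 to 50 for 23, 1 to 10 for 13 and under 1 for 16. The highest was Rab7, which directs late endosomes to lysosomes, at 181 RPKM, with 184 to 220 RPKM in CD34 negative and 158 to 173 RPKM in CD34 positive libraries, on a counted length of 624 bases. Rab31 followed with a mean of 111 RPKM, and then 3 genes of the secretory and early endocytic routes. Those were Rab1a (ER to Golgi transport) at 106 RPKM, Rab2a (Golgi traffic) at 94.9 RPKM and Rab5c (early endosome fusion) at 70.5 RPKM. Rab18, which acts on the ER and lipid droplets, had 66.1 RPKM and Rab5a 58.7 RPKM. Rab1a spanned 96.9 to 117 RPKM and Rab2a 79.9 to 113 RPKM over all 6 libraries. Their ranges overlapped, but Rab1a lay above Rab2a within each of the 6 libraries. Rab31 ran from 42.8 to 170 RPKM, the widest range among the 6 genes with the highest mean RPKM. Counts of close relatives such as Rab1a and Rab1b or Rab5a, Rab5b and Rab5c may be split unevenly, since the handling of reads with several matches was not stated.

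**Figure D1:**
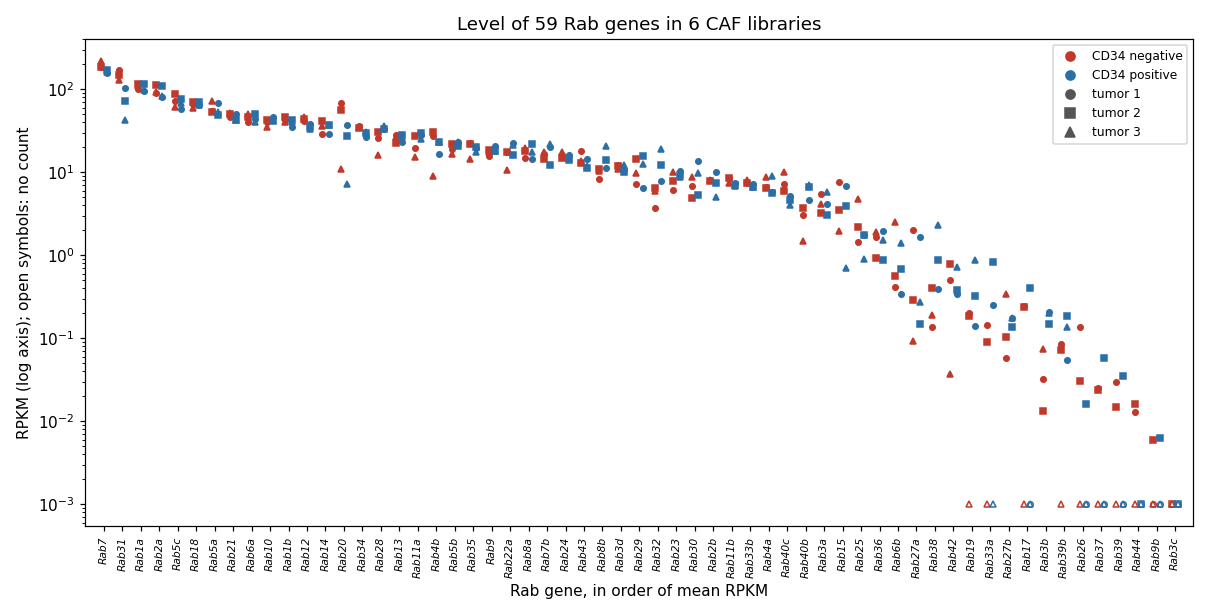
RPKM (log axis) of the 59 Rab genes in each of the 6 libraries, ordered by mean RPKM, with CD34 negative libraries in red, CD34 positive libraries in blue and a symbol shape per tumor. Open symbols at the foot mark a count of 0. Symbols of both colors lie together for most genes above 10 RPKM, whereas Rab31 and Rab20 spread over a wide range and the rarest genes scatter.

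At the other end, 7 Rab genes did not pass the filter on low counts (about 0.249 CPM in 3 libraries) and were not tested. Rab33a, a brain and lymphocyte Rab, reached 69 counts in one library, and Rab26, Rab37, Rab39, Rab44 and Rab9b had at most 14 counts in any library. Rab3c, a Rab of synaptic vesicles, had no count. The filter left 52 Rab genes among 14855 tested genes.

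The comparison of the fractions asked which genes separate CD34 negative from CD34 positive CAFs of the same tumors, and log2 fold changes above 0 mark genes with more RNA in the CD34 negative fraction. In the fit with the study's filter and test and no term for the tumor (limma-voom, Benjamini-Hochberg adjusted p under 0.05), none of the 52 Rab genes was called, where 0.121% of all tested genes were, and 5 Rab genes had an unadjusted p under 0.05 (9.62%, against 14.3% of all genes). The study also removed genes without annotation, which were kept here, and with symbol-bearing genes alone 0 Rab genes and 0.117% of all genes were called. edgeR's quasi-likelihood test also called 0 Rab genes (6 at an unadjusted p under 0.05) and 0.0606% of all genes, and DESeq2 called Rab31 and Rab32 and 4.54% of all genes. When the tumor was added as a block, which compares the fractions within each tumor, limma-voom called 3 of 52, or 5.77%, beside 8.57% of all tested genes. Rab31 and Rab20 were higher (3.85% of the Rab genes, against 4.32% of all genes) and Rab32 was lower (1.92%, against 4.25%) in CD34 negative CAFs. The same 3 were called in the blocked fits without both libraries of tumor 3 (13% of all genes) or of tumor 1 (7.61%). Without tumor 2 only Rab31 and Rab32 were called (5.82% of all genes). Other blocked fits called 2 (edgeR, 3.87% of all genes), 5 (DESeq2, 11.6%) and, with the tumor as a random effect, 2 Rab genes (4.73%), and each of them included Rab31 and Rab32. The Rab genes were thus not called more often than genes at large. In bulk RNA a difference in the share of cells that express a gene cannot be told apart from a difference in RNA per cell.

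As a group the Rab genes changed little. The median log2 fold change was 0.04 over the 52 genes and -0.03 over all tested genes, and the medians within tumors 1, 2 and 3 were 0.05, 0.09 and -0.02. The log2 fold change was within 0.5 of 0 for 36 Rab genes (69.2%, against 60.6% of all genes) and beyond 1 for 7 (13.5%, against 19.0%). Libraries of the groups did not overlap for 6 genes that were higher in CD34 negative CAFs (Rab31, Rab40c, Rab12, Rab34, Rab7 and Rab33b) and 5 that were lower (Rab32, Rab8b, Rab40b, Rab28 and Rab3b). Together they made up 21.2% of the Rab genes, against 20.4% of all genes (10.4% higher and 10% lower). Within tumors, 12 Rab genes were higher in all 3 (23.1%, against 22.8% of all genes) and 8 were lower in all 3 (15.4%, against 23.4%), and 29 of 52 fold changes were above 0 (55.8%, against 47.7%). Summed over all 59 genes, Rab transcripts made up 3086 ± 168 CPM of the library total in the CD34 negative fraction and 2829 ± 39.3 CPM in the other. Without Rab31 the sums were 2573 ± 188 and 2573 ± 64.5 CPM.

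**Figure D2:**
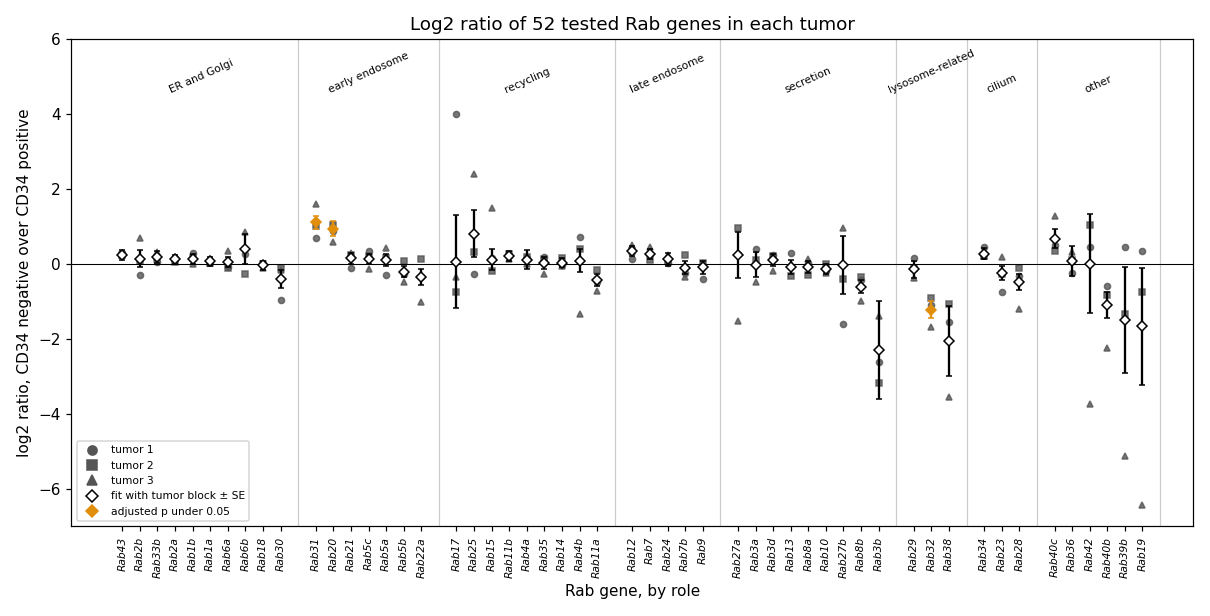
Log2 ratio of CD34 negative over CD34 positive CAFs (vertical axis) for the 52 tested Rab genes, grouped by role, with gray symbols for the single tumors and diamonds for the limma-voom fit with the tumor as a block ± SE. Filled orange diamonds are genes with an adjusted p under 0.05, Rab31 and Rab20 above 0 and Rab32 below 0; most other genes lie close to 0, and those with the widest bars are rare transcripts.

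The promoters of the 3 called genes are shown because these are the members whose RNA differed between fractions within tumors. Each is the 250 bases before the annotated start, on the minus strand of GRCm38.p6 as given by RefSeq, at chr17:65772753-65773002 for Rab31, chr8:11478641-11478890 for Rab20 and chr10:10558208-10558457 for Rab32. Capitals mark matches to 6 motifs searched on both strands, the GC box with the letters GGGCGG, the CCAAT box with CCAAT, the TATA box with TATAAA, the E-box with CACGTG, the cyclic AMP response element (CRE) with TGACGTCA, and the AP-1 site with TGACTCA. The marked matches do not overlap one another.
Rab31: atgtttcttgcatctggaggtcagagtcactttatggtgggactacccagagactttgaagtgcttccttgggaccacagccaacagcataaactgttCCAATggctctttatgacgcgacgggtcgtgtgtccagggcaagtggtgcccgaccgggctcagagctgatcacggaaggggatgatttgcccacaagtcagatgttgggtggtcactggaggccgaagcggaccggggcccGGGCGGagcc
Rab20: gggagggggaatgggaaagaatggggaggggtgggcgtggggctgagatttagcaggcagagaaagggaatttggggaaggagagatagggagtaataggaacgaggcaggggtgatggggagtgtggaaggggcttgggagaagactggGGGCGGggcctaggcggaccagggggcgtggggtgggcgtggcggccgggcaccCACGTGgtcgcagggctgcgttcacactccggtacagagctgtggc
Rab32: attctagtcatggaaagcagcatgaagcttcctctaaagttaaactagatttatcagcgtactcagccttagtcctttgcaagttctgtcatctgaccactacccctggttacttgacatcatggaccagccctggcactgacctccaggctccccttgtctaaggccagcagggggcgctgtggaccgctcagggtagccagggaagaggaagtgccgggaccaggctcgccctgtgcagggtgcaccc
The window of Rab31 held a CCAAT box 152 bases and a GC box 10 bases before the start, and that of Rab20 a GC box 100 bases and an E-box 46 bases before it. None of these letters was found in the window of Rab32. A promoter window was found for 48 of the 59 Rab genes. A GC box was present in 75% of them and in 35.4% of the 27025 genes with a window. Among protein-coding genes with at least 1 CPM in 3 libraries the shares were 78.9% of the 38 Rab genes and 65.1% of 9710 genes. Among the same expressed coding genes, the CCAAT box was found in 52.6% of the Rab genes and 40.5% of all, the TATA box in 2.63% and 7.84%, the E-box in 10.5% and 9.92%, the CRE in 5.26% and 3.09%, and the AP-1 site in 5.26% and 4.14%. Over all genes with a window the shares were 50% of Rab genes and 37.5% of all for the CCAAT box, 8.33% and 14.3% for the TATA box, 10.4% and 6.86% for the E-box, 4.17% and 1.77% for the CRE and 4.17% and 5.16% for the AP-1 site. These matches describe the letters and were not tested as binding sites.

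Rab31 (gene 106572, chromosome 17, 65651726 to 65772752), a relative of Rab22a that moves cargo between the trans-Golgi network and endosomes, had 590, 513 and 453 CPM in the CD34 negative libraries of tumors 1, 2 and 3 and 363, 255 and 149 CPM in the CD34 positive libraries. Every CD34 negative library lay above every CD34 positive one, and in both fractions tumor 1 was highest and tumor 3 lowest. The means were 519 ± 68.5 and 256 ± 107 CPM. The log2 fold change was 1.10 ± 0.33 (SE; limma-voom adjusted p = 0.188) without the block and 1.10 ± 0.17 with it (95% interval 0.72 to 1.49, adjusted p = 0.00562). Within tumors 1, 2 and 3 the log2 ratio was 0.70, 1.01 and 1.61. Without tumor 3 the blocked estimate was 0.84 (adjusted p = 0.00312). Rab31 took 16.7 ± 2.00% of the summed Rab CPM in CD34 negative and 9.02 ± 3.53% in CD34 positive CAFs, whereas Rab1a took 9.28 ± 0.61% and 9.81 ± 0.85%. The mural markers were also higher in the CD34 negative libraries, 4 of 5 with an adjusted p under 0.05 with the block. Their part in the difference of Rab31 was not tested.

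Rab20 (gene 19332, chromosome 8, 11453390 to 11478640) takes part in the maturation of endosomes and phagosomes. It had 49.9, 40.3 and 7.87 CPM in the CD34 negative libraries of tumors 1, 2 and 3 and 27.2, 19.6 and 5.26 CPM in the CD34 positive libraries. Within each tumor the CD34 negative library was higher, but the groups overlapped, because both libraries of tumor 3 lay below the other 4. Tumor means differed 5.88-fold, from 38.6 CPM in tumor 1 to 6.56 CPM in tumor 3. The log2 fold change was 0.89 ± 0.78 (limma-voom adjusted p = 0.643) without the block and 0.94 ± 0.19 with it (95% interval 0.52 to 1.36, adjusted p = 0.0158), and 0.97 without tumor 3 (adjusted p = 0.00334). Without the block, single libraries moved the estimate by over 1.5 times, to 0.37 without the CD34 negative library of tumor 1, 1.65 without that of tumor 3, 1.43 without the CD34 positive library of tumor 2 and 0.32 without that of tumor 3. Leaving out both libraries of tumor 1 gave 0.48. This call was lost with edgeR and the block (adjusted p = 0.0596), with the tumor as a random effect (adjusted p = 0.370) and in the blocked fit without tumor 2 (log2 fold change 0.81, adjusted p = 0.319). The summed epithelial markers stood in the same order over the 6 libraries as Rab20, at 186, 171 and 67.9 CPM in the CD34 negative and 163, 109 and 23.3 CPM in the CD34 positive libraries of tumors 1, 2 and 3. All 10 of them had a fold change above 0 and none was called with the block; their part in the Rab20 values was not tested. The noncoding gene E230013L22Rik overlaps Rab20 and had 1754 counts over all libraries beside 7172 for Rab20. The library kit does not mark strand, so reads in the shared stretch cannot be told apart.

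The other 5 early endosome genes differed less. Rab5a, Rab5b, Rab5c and Rab21 support endosome fusion and integrin uptake, and Rab22a sorts cargo for recycling. Their log2 fold changes lay between -0.34 (Rab22a) and 0.14 (Rab21), none with an adjusted p under 0.05 in either limma-voom fit. Rab5c had 115, 138 and 96.4 CPM in CD34 negative and 90.2, 120 and 107 CPM in CD34 positive libraries of tumors 1, 2 and 3. The groups overlapped, with a log2 fold change of 0.13 ± 0.20 (adjusted p = 0.798), and 0.27 without tumor 3.

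Rab32 (gene 67844, chromosome 10, 10545039 to 10558207) and Rab38 deliver enzymes to lysosome-related organelles such as melanosomes. Rab32 had 7.62, 13.4 and 12.2 CPM in the CD34 negative libraries of tumors 1, 2 and 3 and 16.2, 25.0 and 39.1 CPM in the CD34 positive libraries. No CD34 negative library reached the lowest CD34 positive one. The means were 11.1 ± 3.03 and 26.7 ± 11.5 CPM, and the log2 fold change was -1.33 ± 0.35 (limma-voom adjusted p = 0.152). With the block it was -1.22 ± 0.23 (95% interval -1.74 to -0.70, adjusted p = 0.0125), and without tumor 3 it was -0.97 (adjusted p = 0.00940). The log2 ratios within tumors 1, 2 and 3 were -1.09, -0.90 and -1.68. Cell cycle genes moved the same way, 4 of 6 lower in CD34 negative CAFs with the block. Of 6 tested endothelial markers Tek was lower with the block, whereas 4 had a log2 fold change above 0 without it. The part of these genes was not tested.

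Rab38 (chromosome 7, 88430273 to 88491572) was far less abundant. It had 0.214, 0.642 and 0.303 CPM in CD34 negative and 0.619, 1.37 and 3.70 CPM in CD34 positive libraries of tumors 1, 2 and 3. The ratio was below 0 on the log2 scale in each tumor (-1.55, -1.07 and -3.56), but the groups overlapped and neither fit called it (log2 fold change -2.14 ± 0.98, limma-voom adjusted p = 0.372, and 0.225 with the block), and without tumor 3 the value was -1.66 (without the block). Counts of 10 to 29 in 4 of the 6 libraries limit its precision. Rab29, a Rab of the Golgi and stressed lysosomes, had a log2 fold change of -0.37 ± 0.37 (adjusted p = 0.686), and Rab44 was not tested. Hps1 and Hps4, the subunits of the exchange factor of Rab32 and Rab38, had log2 fold changes of 0.48 ± 0.31 and 0.23 ± 0.35 (adjusted p = 0.518 and 0.799).

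**Figure D3:**
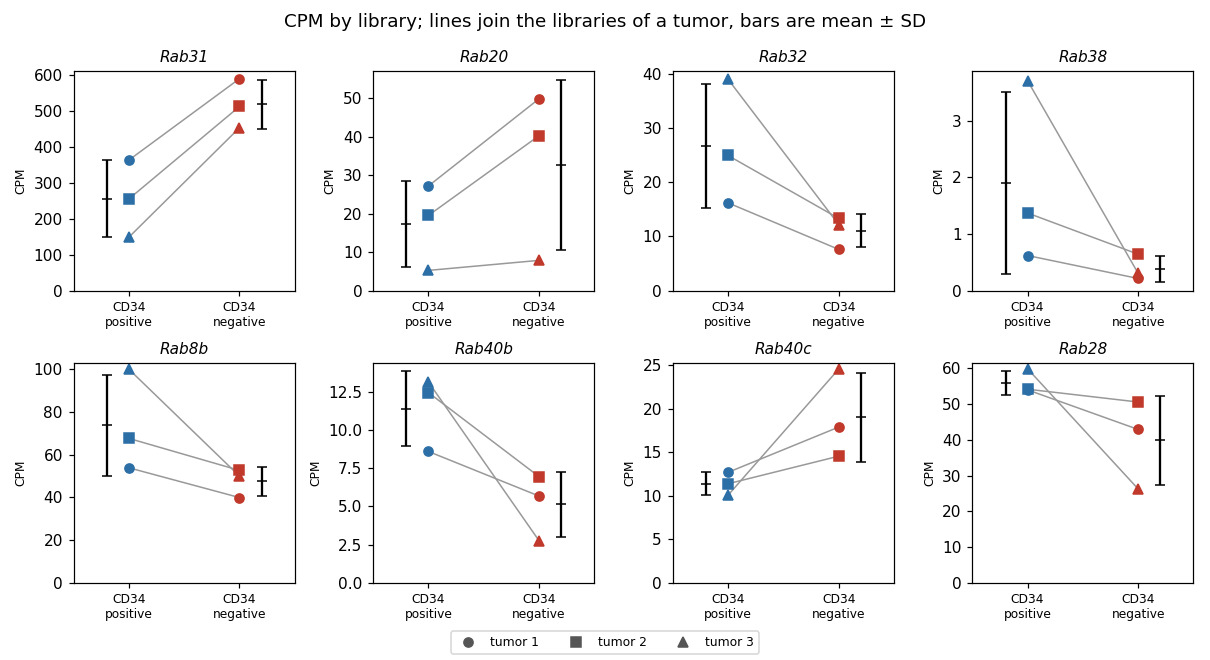
CPM of 8 Rab genes in CD34 positive (blue) and CD34 negative (red) CAFs, with lines joining the libraries of one tumor and bars showing mean ± SD (n = 3). In all 3 tumors the CD34 negative library is the higher one for Rab31, Rab20 and Rab40c and the lower one for Rab32, Rab38, Rab8b, Rab40b and Rab28, and tumor 3 has the lowest Rab20.

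Among 12 Rabs of secretion, 9 were tested, with a median log2 fold change of -0.12. Rab8b, which serves polarized exocytosis, had 39.8, 52.6 and 49.9 CPM in CD34 negative and 53.8, 67.6 and 99.9 CPM in CD34 positive libraries of tumors 1, 2 and 3. Its groups did not overlap, with a log2 fold change of -0.63 ± 0.25 (limma-voom adjusted p = 0.302, and 0.0548 with the block). DESeq2 with the block gave an adjusted p of 0.0319, and without the CD34 positive library of tumor 3 the limma-voom value was -0.40. Its paralog Rab8a had a log2 fold change of -0.12 ± 0.22, and the abundant Rab10, of transport from the Golgi to the surface, -0.15 ± 0.16. Rab3b, a Rab of regulated exocytosis, had 2 to 9 counts in CD34 negative and 11 to 42 in CD34 positive libraries (log2 fold change -2.31 ± 1.19, adjusted p = 0.420). All 3 CD34 positive libraries and 1 CD34 negative library of Rab3b reached the level that the low-count filter asks for. Rab27a, which docks lysosome-related organelles and exosome-forming endosomes at the surface, differed between tumors more than between fractions. It had 5.93, 0.864 and 0.275 CPM in CD34 negative and 4.89, 0.445 and 0.811 CPM in CD34 positive libraries of tumors 1, 2 and 3. Both libraries of tumor 1 lay above the rest, with a tumor mean 9.96-fold that of tumor 3. Its log2 fold change was 0.95 ± 1.21 (adjusted p = 0.761), and the sign turned when the CD34 negative library of tumor 1 was left out (-0.50). Without tumor 3 it was 1.56.

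The Rabs of the ER and Golgi had small log2 fold changes, although not all were measured closely. Of 11 genes in this group 10 were tested, and all 10 had a log2 fold change within 0.5 of 0, with a median of 0.11. Rab1a had 267, 311 and 288 CPM in CD34 negative and 258, 306 and 264 CPM in CD34 positive libraries (log2 fold change 0.08, 95% interval -0.30 to 0.46, and 0.04 without tumor 3). Rab2a had 184, 233 and 192 CPM and 164, 224 and 174 CPM (log2 fold change 0.14, interval -0.30 to 0.57). Rab18 had 149, 160 and 134 CPM and 148, 159 and 145 CPM (log2 fold change -0.03, interval -0.39 to 0.33, and -0.001562 without tumor 3). For these 3 genes the intervals from limma-voom without the block leave room for changes of up to 0.57 on the log2 scale. Less abundant members had wider intervals, such as -1.65 to 1.67 for Rab6b and -1.02 to 0.67 for Rab30. Rab6b, the rarer relative of the Golgi Rab6a, was higher in both libraries of tumor 3, at 12.0 and 6.63 CPM, than in the other 4, at 1.61 to 3.24 CPM.

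Recycling Rabs (9 of 9 tested) had a median log2 fold change of 0.15 and none was called in either fit. Rab11a, of the recycling endosome, had the largest negative value in this group, -0.45 ± 0.23 (adjusted p = 0.420, and 0.145 with the block), whereas its paralog Rab11b had 0.21 ± 0.16. Rab25 and Rab17 are Rabs of epithelial cells, and Rab25 had 0.953 to 5.12 CPM and Rab17 0 to 0.796 CPM. Rab15 differed 5.41-fold between tumors, from 22.7 CPM in tumor 1 to 4.19 CPM in tumor 3. Over all tested Rab genes, 20 (38.5%) had both libraries of some tumor above or below the other 4, against 44.1% of all tested genes.

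Late endosome Rabs (5 of 6 tested) had a median log2 fold change of 0.14. Rab7 (chromosome 6, 87999106 to 88045270) had 118, 115 and 137 CPM in CD34 negative and 98.7, 108 and 101 CPM in CD34 positive libraries of tumors 1, 2 and 3. Its groups did not overlap, but the difference was small (log2 fold change 0.26, limma-voom 95% interval -0.10 to 0.63, adjusted p = 0.488), and it was 0.16 without tumor 3. Rab12, which sends the transferrin receptor to lysosomes, had a log2 fold change of 0.33 ± 0.16 (limma-voom adjusted p = 0.378, and 0.180 with the block). Of the 3 ciliary Rabs, Rab34 had 0.28 ± 0.16, Rab28 -0.52 ± 0.25 and Rab23, a negative regulator of Hedgehog signaling, -0.28 ± 0.22. Without the block all had a limma-voom adjusted p above 0.38. With the block the adjusted p was 0.287 for Rab34, 0.197 for Rab28 and 0.514 for Rab23.

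The remaining 7 genes, 6 of them tested, include Rab40b and Rab40c, atypical Rabs with a SOCS box that join Cullin ubiquitin ligases. Rab40b (chromosome 11, 121356121 to 121388251) had 5.68, 6.95 and 2.75 CPM in CD34 negative and 8.60, 12.5 and 13.2 CPM in CD34 positive libraries of tumors 1, 2 and 3. Rab40c (chromosome 17, 25882114 to 25919714) ran the other way, with 17.9, 14.5 and 24.6 CPM in CD34 negative and 12.7, 11.4 and 10.1 CPM in CD34 positive libraries. Neither pair of groups overlapped, and the sums of both genes were close, at 24.1 CPM in the CD34 negative and 22.8 CPM in the CD34 positive fraction. The log2 fold changes were -1.25 ± 0.37 for Rab40b (limma-voom adjusted p = 0.188, and 0.0921 with the block) and 0.71 ± 0.27 for Rab40c (0.292, and 0.145 with the block). Without tumor 3 Rab40b had -0.87 and Rab40c 0.45 without the block. The split of reads between these close relatives is uncertain. DESeq2 with the block called Rab40b (adjusted p = 0.0463). Rab19 and Rab39b had the most negative values after Rab3b and Rab38, -2.13 ± 1.54 and -2.10 ± 1.51 (adjusted p = 0.566 and 0.565). Both rest on 0 to 54 counts a library, with 0 in the CD34 negative library of tumor 3, and the log2 ratio of tumor 1 was above 0 for each (0.35 and 0.44). Without both libraries of tumor 3 the values were -0.44 and -0.82, and without those of tumor 1 they were -3.22 and -3.29. Rab36 and Rab42 had 0.36 ± 0.47 and -0.53 ± 1.32.

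The machinery around the Rabs was followed in 157 genes of 5 lists, of which 153 were tested. Without the block none was called (24 at an unadjusted p under 0.05), and with the block 12 were, 9 higher and 3 lower in CD34 negative CAFs. This was 7.84%, close to the 8.57% of all tested genes (4.32% higher, 4.25% lower). Fewer remained called with edgeR and the block (Ehbp1, Myo7a and Tbc1d16) and with the tumor as a random effect (Myo7a, Sytl2, Tbc1d16 and Tbc1d8), and 8, 6 and 10 of the 12 remained without tumor 1, 2 or 3.

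Of 64 tested effectors and Rab kinases, 4 were higher and 3 lower with the block, together 10.9% beside 8.57% of all tested genes (4.32% higher, 4.25% lower). Myo7a, a myosin that Myrip links to Rab27a on melanosomes, had 96.8, 125 and 155 CPM in CD34 negative and 39.5, 48.8 and 25.7 CPM in CD34 positive libraries of tumors 1, 2 and 3 (log2 fold change 1.73 ± 0.24, limma-voom with the block, adjusted p = 0.00322). It was called in each of the 8 alternatives to this fit. Mical2 and Mical1, oxidoreductases that take actin filaments apart, rose with log2 fold changes of 0.95 ± 0.20 and 0.59 ± 0.15 (adjusted p = 0.0186 and 0.0462). Lrrk1, a kinase of Rab7, rose with 0.62 ± 0.15 (adjusted p = 0.0378). Lrrk2, a kinase of Rab8 and Rab10 proteins, had -0.04 ± 0.21 in limma-voom without the block (adjusted p = 0.946). That fit called none of the list genes, so the values of the 2 kinases cannot be set against each other. The effectors that fell were Sytl2, Ehbp1 and Osbpl1a. Sytl2, which tethers Rab27 vesicles to the plasma membrane, had 10.9, 12.3 and 3.55 CPM in CD34 negative and 27.2, 33.3 and 46.2 CPM in CD34 positive libraries (log2 fold change -1.92 ± 0.38, adjusted p = 0.0158). Ehbp1, an effector of Rab8 and Rab10, had 50.5, 33.6 and 30.5 CPM and 102, 47.7 and 75.8 CPM (-0.93 ± 0.18, adjusted p = 0.0125). Osbpl1a, a cholesterol sensor that binds Rab7, had -0.61 ± 0.16 (adjusted p = 0.0437).

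Of 38 tested GAPs, 3 were higher and none was lower with the block, which was 7.89% beside 8.57% of all tested genes (4.32% higher, 4.25% lower). They were Tbc1d8 (log2 fold change 1.15 ± 0.28, adjusted p = 0.0334), Tbc1d16, a GAP of Rab4 (0.87 ± 0.16, adjusted p = 0.0110), and Tbc1d10a, a GAP of Rab27a (0.65 ± 0.17, adjusted p = 0.0462). Of 37 tested GEFs only Dennd4a, an exchange factor of Rab10, was called, which was 2.7% beside 8.57% of all tested genes. It was higher, with 249, 323 and 371 CPM in CD34 negative and 207, 179 and 82.8 CPM in CD34 positive libraries of tumors 1, 2 and 3 (log2 fold change 1.10 ± 0.29, adjusted p = 0.0452). Of the 8 genes for prenylation and GDI function, Rabac1, which helps Rabs to leave GDI, was higher (0.63 ± 0.14, adjusted p = 0.0242). The abundant Gdi2 had -0.01 ± 0.13 in the same fit with the block (adjusted p = 0.965). Rabac1 was the only call of this list, or 12.5%. None of the 6 Rab-like GTPases was called in either fit.

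**Figure D4:**
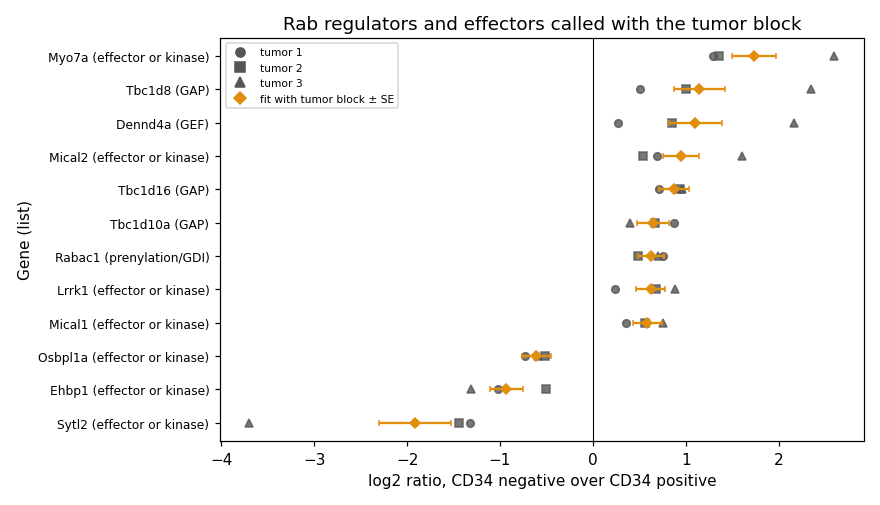
Log2 ratio of CD34 negative over CD34 positive CAFs (horizontal axis) for the 12 genes of the regulator and effector lists with an adjusted p under 0.05 with the tumor as a block; gray symbols are single tumors and orange diamonds the fit ± SE. For 9 genes all 3 tumors lie above 0 and for Osbpl1a, Ehbp1 and Sytl2 all 3 lie below, with tumor 3 farthest from 0 for genes such as Myo7a, Tbc1d8, Dennd4a and Sytl2.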

How the data were processed

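RNA-seq was measured in 6 libraries of CD34 negative and CD34 positive CAFs, 3 tumors each. The authors aligned reads to GRCm38 and obtained gene counts by NCBI identifier with featureCounts. The deposited values are raw counts per gene and library, with no normalization. Whether strand was used was not stated, and the kit does not mark strand. Groups and tumor numbers came from the sample titles. The study removed genes without annotation, whereas genes without a symbol were kept here. Genes with low counts were removed by filterByExpr (minimum count 10) and libraries were scaled by TMM. limma-voom compared the groups, two-sided, with Benjamini-Hochberg adjustment over all 14855 tested genes (R 4.3.3, edgeR 4.0.16, limma 3.58.1, DESeq2 1.42.0). It was run without the tumor, as the study's methods state no such term, and with the tumor as a block. The tumor pairs the libraries, since both were sorted from it. Deviations from group means correlated across genes within tumors at 0.373, 0.350 and 0.219. RPKM used the counted length in the deposited table. Positions and promoters are RefSeq's for GRCm38.p6. The Rab genes, role groups and regulator lists were chosen with earlier results of these data known. Genes were named by the following rule. Rab genes with an adjusted p under 0.05 in either fit or an unadjusted p under 0.05 without the block, the 4 largest rises and falls and the 6 highest mean RPKM are given per library or by range, and list genes called with the block by fold change. Other genes were added for their role after their values were seen. Other tests, scalings and filters and left-out libraries or tumors were tried as alternatives. Marker sums are CPM of the library total.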

Additional observations from a re-analysis of the deposited data

How the results depend on the processing

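With 3 tumors, precision was limited, and the median SE of the tested Rab genes was 0.24 without the block and 0.18 with it. The SE was larger for Rab genes with few counts a library, such as 1.54 for Rab19 without the block. The parts of depth and of the spread between tumors were not tested. No Rab gene was called by limma-voom without the block. DESeq2 called 2 (4.54% of all genes), the replicate block 3 (8.57%) and the tumor as a random effect 2 (4.73%, within-tumor correlation 0.393). Without the block, leaving out single libraries or tumors gave 0 to 0, although 4 of those fits called no gene at all. With the block, DESeq2 called 5 Rab genes (adding Rab8b and Rab40b) and 11.6% of all genes. Leaving out tumor 1, 2 or 3 gave 3, 2 and 3 Rab genes, beside 7.61%, 5.82% and 13% of all genes. The median log2 fold change of the Rab genes, 0.04, ranged from -0.02565 to 0.04196 when libraries or tumors were left out, and was -0.02 without CD34 negative replicate 1 and -0.03 without CD34 positive replicate 3. Of the regulator and effector genes, 0 were called without the block, and 3 by DESeq2, 12 with the replicate block, 4 with the tumor as a random effect and 0 to 1 with libraries or tumors left out. With the block, edgeR called 3 of them (3.87% of all genes), the random effect 4 (4.73%) and the fit without the low-count filter 5 (3.93%). Leaving out tumor 1, 2 or 3 gave 11, 7 and 16 of them, beside 7.61%, 5.82% and 13% of all genes. These blocked alternatives of the lists were chosen after seeing the data. Rab27a turned sign with limma-trend (-0.08439) and without CD34 negative replicate 1 (-0.50), CD34 positive replicate 2 (-0.17) or tumor 1 (-0.01213), with a range over left-out libraries and tumors up to 1.67, Rab5c without CD34 negative replicate 2 (-0.006133, up to 0.27) and Rab18 without CD34 negative replicate 3 (0.04105, down to -0.09737). The cause of these changes was not tested. Over the named Rab genes and their alternatives, 300 values kept their direction and side of the threshold, 7 passed it, 3 lost it and 6 turned sign. Over the alternatives to the fit without the block, Rab31 lay between 0.74 and 1.43, Rab32 between -1.58 and -1.04 and Rab20 between 0.32 and 1.65. Over those to the blocked fit, the ranges were 0.84 to 1.30 for Rab31, -1.48 to -0.97 for Rab32 and 0.81 to 1.02 for Rab20.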
